A study of Homo sapiens with 24 samples.

Results

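The clustered protocadherins are adhesion proteins of the cadherin superfamily whose genes lie in 3 neighbouring clusters on chromosome 5. They were picked by name: each protein-coding gene whose GENCODE v29 symbol is PCDHA, PCDHAC, PCDHB, PCDHGA, PCDHGB or PCDHGC with a number after it. Of the 57500 genes with counts, 53 met this rule: 13 alpha, 2 alpha C-type, 16 beta, 12 gamma A, 7 gamma B and 3 gamma C genes. RNA was sequenced from spheroids of the head and neck squamous carcinoma lines FaDu and SAS, in 8 groups of 3 libraries. Each line had untreated controls, irradiation (RT; 7 Gy in FaDu, 10 Gy in SAS), hyperthermia (HT; 42.5 °C for 60 min) and both in succession (HT+RT), with RNA taken 0.5 h after treatment. The RT and HT+RT groups of the lines therefore differ in dose as well as in line. Both are established tumor lines, the FaDu cells being a subline of the cell bank stock, so a difference between the lines is a difference between 2 cultures. The replicates of a group are independent experiments according to the paper.

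As background, each alpha and gamma gene joins its own large variable exon to constant exons shared by its whole cluster, whereas each beta protein comes from a variable exon alone. In neurons, single cells switch on different sets of alpha, beta and gamma promoters, and binding between identical proteins on facing membranes lets a neuron tell its own branches from those of others. CTCF and cohesin fold chosen promoters onto distant enhancers, DNA methylation keeps others silent, and silencing of whole stretches of these clusters is known from several kinds of tumor.

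In GENCODE v29, all 53 genes are read in the same direction. The 15 alpha and alpha C-type genes span 226 kb (chr5:140786136-141012347), the 16 beta genes 198 kb (chr5:141051135-141249365) and the 22 gamma genes 182 kb (chr5:141330571-141512981). The libraries held 15203484 to 29452514 counted reads (median 18378943). The aligner and whether counting used the strand of the directional libraries are not given in the sources used here, nor is the treatment of reads in the shared constant exons, and the only genome build named in the labels is a mouse build. Replicate 1 stood apart in each FaDu group: over all genes its distance from the other replicates, as chi-square per gene, was 15.1 to 22, against 3.51 to 5.09 between replicates 2 and 3. In the SAS controls, replicate 3 lay at 10.3 and 9.06 from replicates 1 and 2, which lay 4.61 apart. Distances in the other SAS groups were 4.88 to 11.8. Outside those shared exons, a median of 7.59% of the 50-base stretches of a member also occur in another annotated gene, with a highest value of 45.1% (PCDHB8), so counts may be misassigned at such stretches. Intervals and floors given here cover counting error only.

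All 12 squamous and epithelial markers were detected in every group, meaning at least 3 counts in each of its 3 libraries. Their summed level in CPM (counts relative to library size, TMM-scaled over the 24 libraries) was 12670, 15560 and 14940 in the FaDu controls, led by KRT17, and 12030, 11880 and 11260 in the SAS controls, led by KRT8. Of 12 neuronal markers, 6 were detected in FaDu and 4 in SAS controls, with sums of 27.6, 23.7 and 24.3 CPM in FaDu (SYT1 most abundant) and 21.3, 19.2 and 14.1 CPM in SAS (MAP2). Glial markers summed to 62.4, 64.5 and 68.7 CPM in FaDu and 88.8, 104.7 and 69.0 CPM in SAS controls, nearly all of it MBP. Endothelial markers (led by CDH5, 4.17 and 14.4 CPM in FaDu and SAS) and immune markers (led by CD14, 5.33 and 8.06 CPM) were also detected in part. Fibroblast markers summed to 36.8, 43.7 and 47.2 CPM in FaDu controls, nearly all COL1A1, and to 1.93, 1.77 and 2.58 CPM in SAS controls. OLIG2 among glial markers had 0 counts in all 12 FaDu libraries, while the neuronal genes GAP43, ELAVL4 and STMN2, the immune gene PTPRC, KDR, AQP4 and OLIG1 were among those with 0 in all 12 SAS libraries. The lines thus carried the markers of squamous epithelium, with the markers of other tissues at a small share of that level.

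FaDu and SAS spheroids differed in part of the clusters and shared another part, with 4 members detected in all 8 groups. FaDu had counts on members of all 3 clusters, whereas SAS had almost none on the alpha cluster and drew most of its signal from a pair of gamma genes. Over 12 libraries per line, the 15 alpha and alpha C-type genes held 4225 counts in FaDu and 16 in SAS. All 53 members together held 17537 and 13362.

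**Figure D1:**
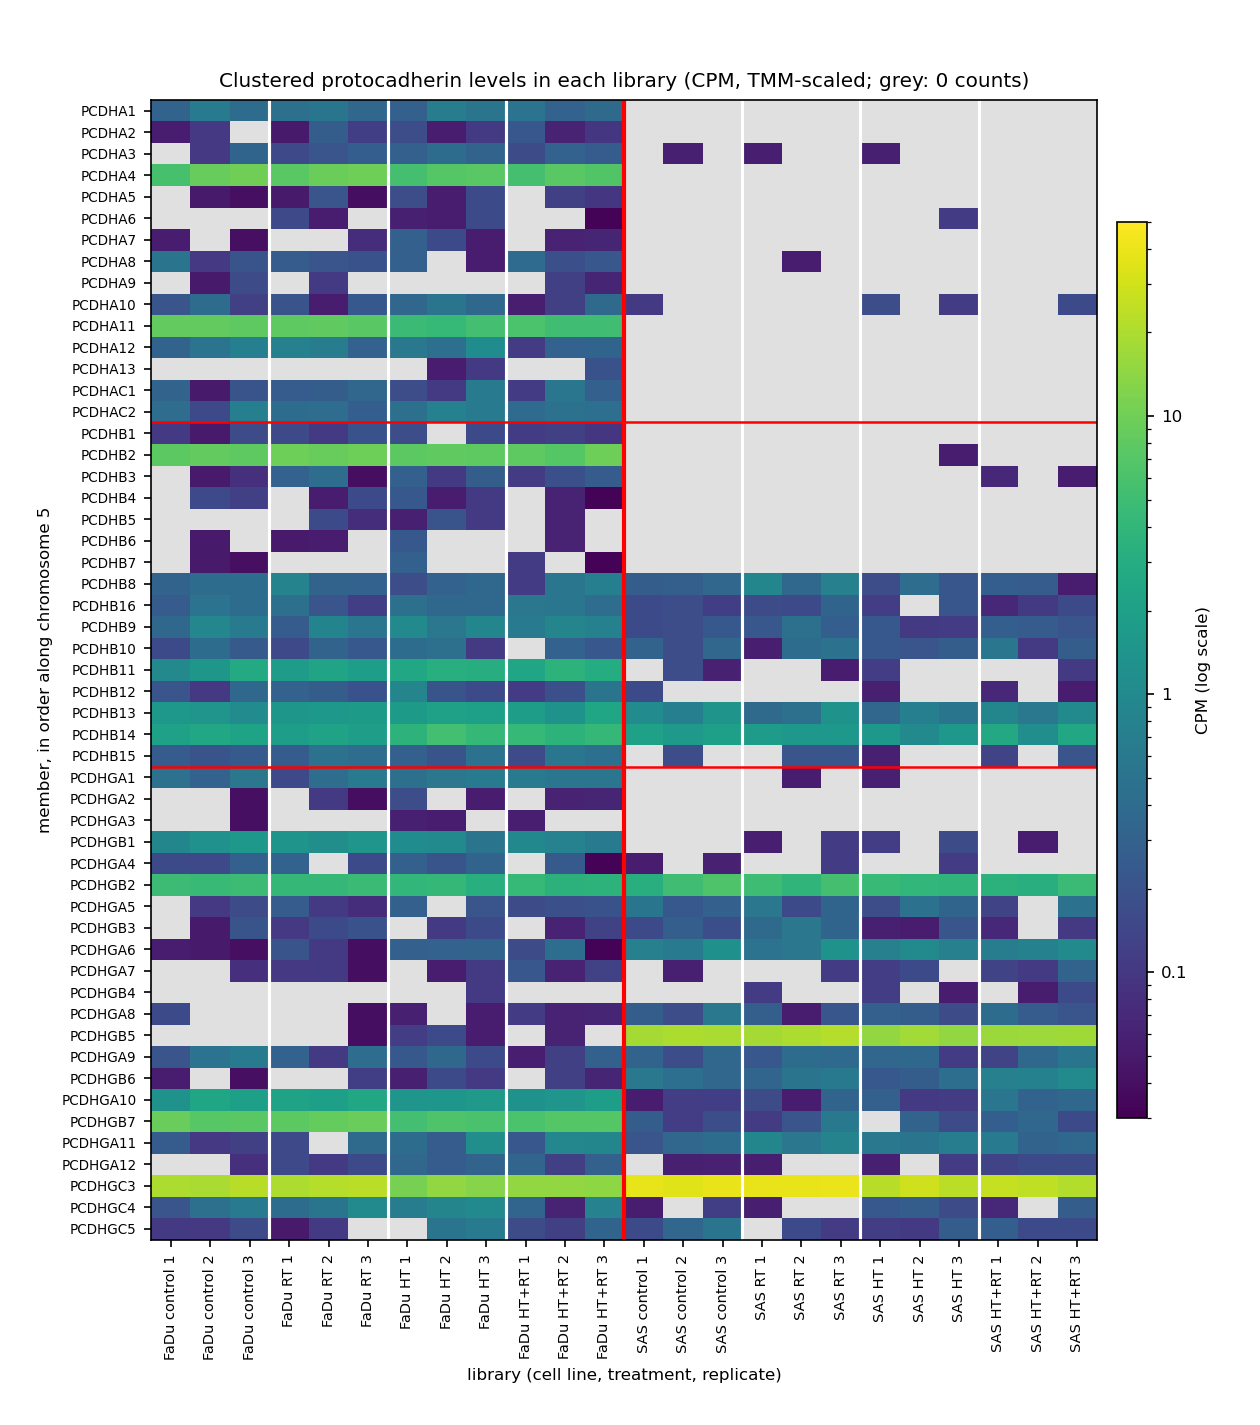
Level of each of the 53 members (vertical, in chromosome order) in each of the 24 libraries (horizontal), as CPM on a log color scale, with grey for 0 counts. The alpha block at the top holds counts on most genes in the 12 FaDu libraries, highest on PCDHA4 and PCDHA11, and is nearly all grey in the 12 SAS libraries.

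No member was at 0 in all 12 FaDu libraries, and 17 members were detected in all 4 FaDu groups. In SAS, 18 members had 0 counts in all 12 libraries: PCDHA1, PCDHA2, PCDHA4, PCDHA5, PCDHA7, PCDHA9, PCDHA11, PCDHA12, PCDHA13, PCDHAC1, PCDHAC2, PCDHB1, PCDHB4, PCDHB5, PCDHB6, PCDHB7, PCDHGA2 and PCDHGA3. Of these, 11 are alpha or alpha C-type genes, 5 are beta genes and 2 are gamma A genes. Only 8 members were detected in all 4 SAS groups, and 4 in all 8 groups: PCDHB13, PCDHB14, PCDHGB2 and PCDHGC3. At the other end, 21 members in FaDu and 33 in SAS were detected in no group. Near-silent members thus made up much of the family in both lines, and the nearly silent stretch in SAS ran from the alpha genes (4 of 15 with any count) over the first beta genes next to them, where PCDHB2 and PCDHB3 had 1 and 2 counts.

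Summed over members, the alpha genes reached 15.7, 19.4 and 20.2 CPM in the FaDu controls and 0.107, 0.0571 and 0 CPM in the SAS controls. The beta genes reached 14, 16.8 and 16.7 CPM in FaDu and 4.22, 3.54 and 4.52 CPM in SAS. The gamma B genes were at 15, 13.02 and 14.2 CPM in FaDu and at 22.7, 26.3 and 26.8 CPM in SAS. In none of these subgroups did the control libraries of the lines overlap. The gamma A sums (2.68, 3.68 and 4.07 CPM in FaDu; 2.19, 1.77 and 3.11 CPM in SAS) did overlap, and the gamma C sums, nearly all PCDHGC3, were 20.3, 20.3 and 23.1 CPM in FaDu and 38.4, 35.6 and 39.7 CPM in SAS. The whole family came to 73.7 ± 5.42 CPM (SD, n = 3) in FaDu and 69.6 ± 3.83 CPM (SD, n = 3) in SAS controls, with overlap between the lines on the TMM scale. By library total alone (plain CPM) the controls did not overlap, at 73.5, 80.9 and 88.1 in FaDu and 64.3, 64.7 and 70.9 in SAS. On the TMM scale, each FaDu library lay above each SAS library after HT (60.1, 68.1 and 66.95 against 48.8, 57.9 and 49.2 CPM) and after HT+RT (62.5, 65.5 and 68.4 against 55.7, 51.3 and 53.02 CPM). After RT the lines overlapped (73.48, 78.66 and 81.56 against 69.88, 69.83 and 78.74 CPM). In bulk RNA, fewer cells expressing a gene and less RNA per cell cannot be told apart.

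**Figure D2:**
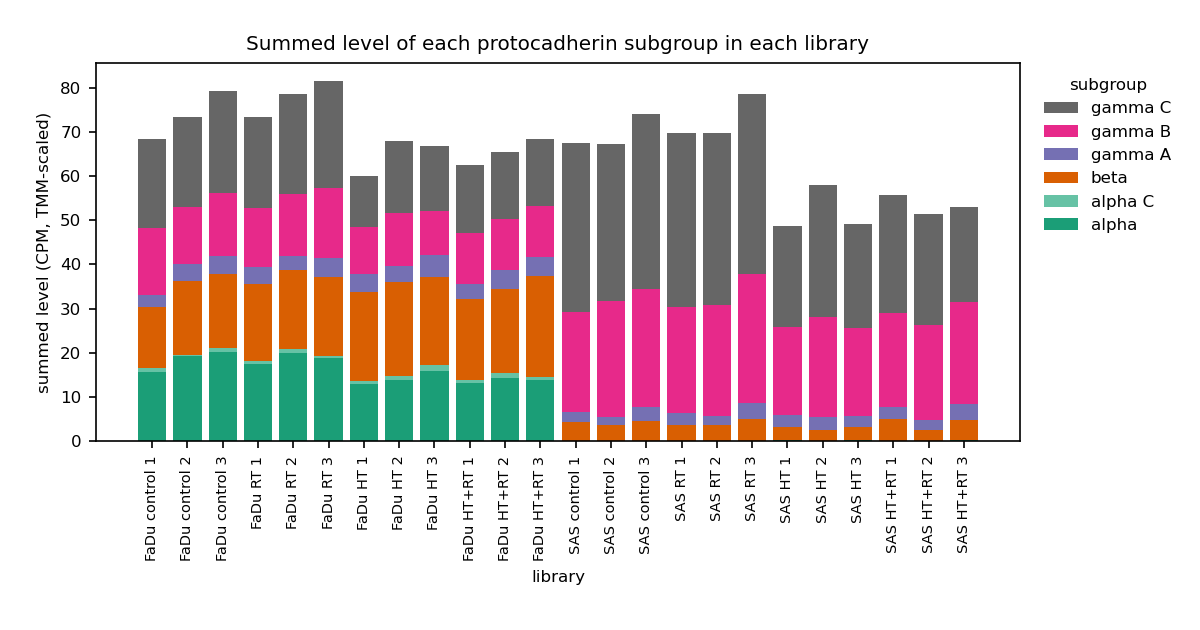
Summed level of each subgroup in each of the 24 libraries, as stacked bars in CPM starting at 0. The alpha sums of 15.7 to 20.2 CPM in the FaDu controls are nearly absent in SAS, where gamma B and gamma C fill most of each bar.

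Between genes, levels are compared as CPM per kb of exonic sequence that no other annotated gene overlaps. On this scale PCDHGC3, a C-type gene widely expressed outside neurons, had the highest level of all members in each of the 8 groups, at 6.37 ± 0.439 (SD, n = 3) in FaDu controls and 11.5 ± 0.615 (SD, n = 3) in SAS controls. It made up 30.2% ± 0.729 (SD, n = 3) of the summed level per kb of all members in FaDu controls and 50.9% ± 2.59 (SD, n = 3) in SAS controls. The SAS share of PCDHGB5 was 32.2% ± 1.96 (SD, n = 3), so PCDHGC3 and PCDHGB5 carried most of the SAS level. In FaDu controls the next levels per kb were those of PCDHGB7 (2.88 ± 0.374), PCDHA11 (2.48 ± 0.0824) and PCDHB2 (2.28 ± 0.106; each SD, n = 3). These neighbours in the order lie about as far apart as their spread, and their order differed between the 4 FaDu groups. The other subgroups were led in FaDu controls by PCDHGA10 (0.433 CPM per kb) and PCDHAC2 (0.137 CPM per kb). In SAS controls the leading beta gene was PCDHB14 (0.410 CPM per kb) and the leading gamma A gene PCDHGA6 (0.152 CPM per kb), with PCDHGA11 ahead in the SAS RT and HT groups (0.211 and 0.166 CPM per kb). Alpha genes in SAS were led by whichever had a count, from PCDHA3 in controls to PCDHA8, PCDHA6 and PCDHA10 after treatment, none above 0.0111 CPM per kb.

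The promoters of these members share a short motif. Nearly all are known to hold a conserved sequence element with the core CGCT, the element at which CTCF binds in many of them. Promoter windows (RefSeq, GRCh38.p14; 300 bases, from 250 before to 50 after the start) were found for 47 of the 53 members and not for PCDHA3, PCDHA13, PCDHB6, PCDHB11, PCDHGA12 and PCDHGC5. In the 90 bases from 110 to 21 before the start, the letters CGCT occurred on the strand of the gene in 43 of the 47 (91.5%), against 24.9% of the 27305 promoters of all genes. On either strand it was 91.5% against 40.9%. These shares count the letters CGCT alone and do not measure the whole conserved element. The letters were not in this window of PCDHA9, PCDHB5, PCDHB8 and PCDHGB2, of which PCDHGB2 was detected in all 8 groups. These 90 bases are printed, on the + strand and with CGCT in capitals, for the members that the results turn on and for PCDHGB4, which had at most 3 counts in any library: chr5:140806958-140807047 (PCDHA4), chr5:140868847-140868936 (PCDHA11), chr5:141094505-141094594 (PCDHB2), chr5:141223233-141223322 (PCDHB14), chr5:141387588-141387677 (PCDHGB4), chr5:141397837-141397926 (PCDHGB5), chr5:141417567-141417656 (PCDHGB7) and chr5:141475856-141475945 (PCDHGC3).
PCDHA4: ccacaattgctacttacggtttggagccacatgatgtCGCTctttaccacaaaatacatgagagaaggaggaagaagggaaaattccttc
PCDHA11: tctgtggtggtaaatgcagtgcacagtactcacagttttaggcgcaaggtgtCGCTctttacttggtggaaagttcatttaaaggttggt
PCDHB2: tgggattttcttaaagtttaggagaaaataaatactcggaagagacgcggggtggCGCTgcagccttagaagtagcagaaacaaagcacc
PCDHB14: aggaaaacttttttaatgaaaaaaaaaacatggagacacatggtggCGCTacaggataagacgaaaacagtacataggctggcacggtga
PCDHGB4: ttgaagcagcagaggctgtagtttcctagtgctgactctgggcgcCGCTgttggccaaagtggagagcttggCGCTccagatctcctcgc
PCDHGB5: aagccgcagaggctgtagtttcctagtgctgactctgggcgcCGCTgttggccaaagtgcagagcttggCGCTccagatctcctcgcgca
PCDHGB7: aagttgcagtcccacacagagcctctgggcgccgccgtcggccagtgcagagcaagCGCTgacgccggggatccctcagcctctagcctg
PCDHGC3: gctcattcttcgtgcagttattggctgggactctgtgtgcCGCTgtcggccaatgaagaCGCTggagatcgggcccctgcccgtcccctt

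The letters were present both in members with high counts and in members at 0, and a match in them is a description, not a binding site. PCDHGB4 and PCDHGB5 have the most alike promoters of the 153 gamma A and gamma B pairs, with 70.4% of 247 aligned bases equal. Their counts were far apart: PCDHGB5 had 347, 355 and 334 counts in the SAS controls, where PCDHGB4 had 0 in each. PCDHGB4 is also the gene with which PCDHGB5 shares most sequence (19.5% of its 50-base stretches), and it held no more than 3 counts in any library.

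In the controls, FaDu was higher than SAS in PCDHA4, PCDHA11, PCDHB2, PCDHB11, PCDHGB1, PCDHGA10 and PCDHGB7, and SAS was higher in PCDHGB5 and PCDHGA6. PCDHA4 had 109, 175 and 246 counts in FaDu and 0 in each SAS library, which is at least 149.6-fold higher in FaDu against a floor of 3 counts over the SAS group. PCDHA11 had 162, 166 and 195 counts against 0, 0 and 0 (at least 147.7-fold higher). In PCDHB2, a beta gene, the counts were 145, 164 and 194 against 0, 0 and 0 (at least 142.0-fold higher). These 3 genes were present in every FaDu library and absent from every SAS control, so the groups did not overlap.

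PCDHGB7 had 175, 143 and 183 counts in FaDu and 5, 2 and 3 in SAS controls, a log2 fold change of 5.39 (SE 0.29, edgeR adjusted p = 4.21e-08). PCDHGB5, 4 genes before it in the gamma cluster, had 0 counts in each FaDu control and 347, 355 and 334 in SAS, at least 407.7-fold higher in SAS. The gamma B level was thus led by different genes in the lines, with no overlap between groups for either. In controls PCDHGB7 made up 53.8% of the gamma B level per kb in FaDu, and PCDHGB5 77.5% in SAS. PCDHGB2 came second in both lines, at 34.0% in FaDu and 19.8% in SAS. PCDHGA10, a gamma A gene beside PCDHGB7, had 26, 48 and 48 counts in FaDu and 1, 2 and 2 in SAS (log2 fold change 4.30, SE 0.47, edgeR adjusted p = 9.27e-06). PCDHB11 had 19, 30 and 67 counts against 0, 3 and 1 (4.49, SE 0.69, edgeR adjusted p = 1.34e-04), and PCDHGB1 17, 25 and 38 against 0, 0 and 0 (at least 22.6-fold higher). PCDHGA6 went the other way, with 1 count in each FaDu library and 14, 11 and 21 in SAS, a ratio of 18.1 (95% counting interval 5.82 to 90.99) in favor of SAS. For each of these, the lowest library of the high line lay above the highest of the low line.

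The members with ample counts in both lines differed less. PCDHGC3 had 380, 387 and 543 counts in FaDu and 714, 617 and 665 in SAS controls, with a log2 fold change of -0.83 (SE 0.09, edgeR adjusted p = 7.58e-06), lower in each FaDu library but short of the 2-fold threshold. PCDHB14 (40, 50 and 54 against 39, 29 and 34 counts) had a log2 fold change of 0.29 and PCDHGB2 (92, 86 and 118 against 58, 91 and 110 counts) a value of -0.03. The groups overlapped in PCDHGB2, and in PCDHB14 the lowest FaDu library (2.105 CPM) lay just above the highest of SAS (2.085 CPM). In all, edgeR tested 13 of the 53 members and called 9 of the 13 (adjusted p under 0.05 and a fold change over 2), 7 higher in FaDu and 2 higher in SAS. Over all genes tested, 38.1% were called, 21.2% higher in FaDu and 16.9% higher in SAS. The other 40 members were filtered out for low counts. The median log2 fold change of the 13 was 4.30 (also with the 5 genes at 0 in a line set to their bound), against 0.029 over all tested genes. The 9 called members passed the low-count filter through their high line only and so had to differ, and neither their number nor the median is support for a difference of the family. Of the 4 members with at least 10 counts in every library, edgeR called 0, against 3661 of 12878 genes under that filter. PCDHGC3 had an unadjusted p under 0.05 there, as did 9715 of the 12878 genes. DESeq2 called 16 of 49 members (7014 of 30997 genes) and the fit with no filter 19 of 49 (7991 of 30997). With all 24 libraries in 1 fit the number called was 17.

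**Figure D3:**
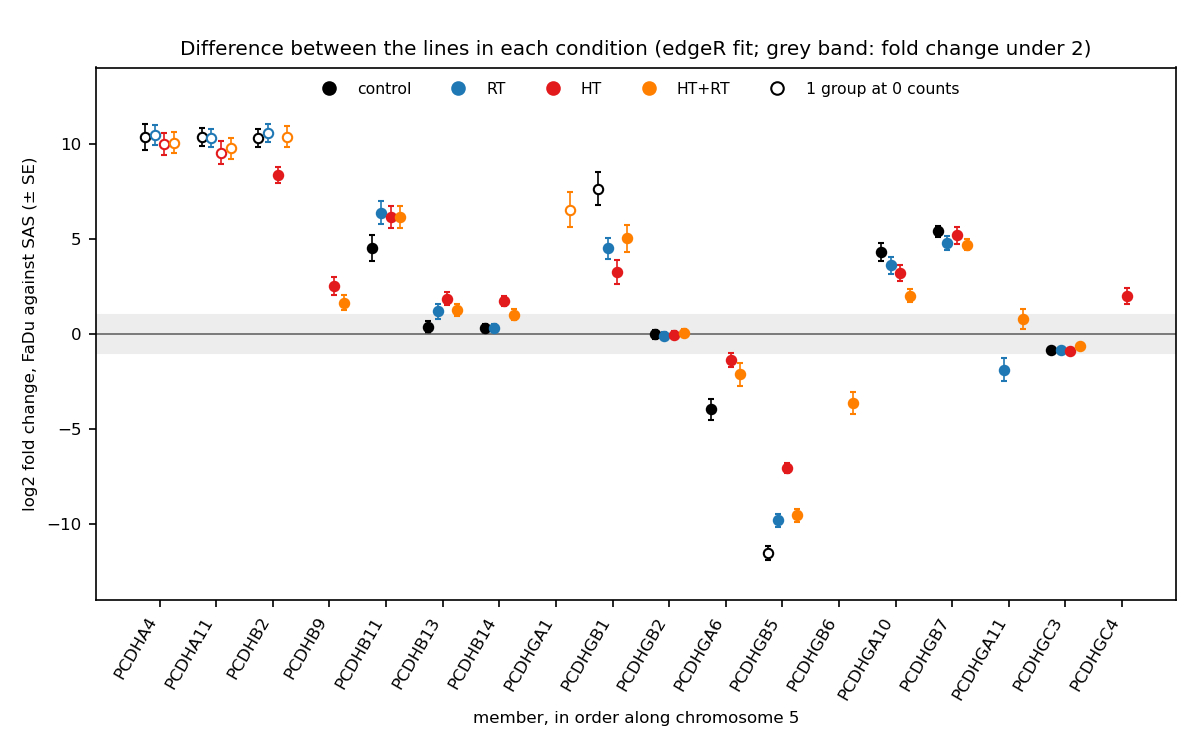
Log2 fold change of FaDu against SAS (vertical, ± SE; n = 3 per group) in each condition for the members called in any of the 4 comparisons, with PCDHGB2 and PCDHGC3 for reference. Open points have a group at 0 counts, where the fitted size rests on the prior count, and PCDHGA11 and PCDHGB2 (near 0 throughout) are on different sides in different conditions.

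After RT, with doses that differed between the lines, 8 of the 9 members called in controls were called again, and the remaining member, PCDHGA6 (4, 2 and 1 against 9, 11 and 24 counts), was filtered out. PCDHA4 (145, 177 and 248 counts), PCDHA11 (153, 155 and 189) and PCDHB2 (187, 165 and 252) were again at 0 in every SAS RT library, at least 164.4-fold, 143.3-fold and 174.2-fold higher in FaDu. PCDHGB5 had 0, 0 and 1 counts in FaDu and 322, 382 and 404 in SAS RT libraries, a ratio of 1281 (95% counting interval 229.4 to 50630). PCDHGB7 (log2 fold change 4.78), PCDHGA10 (3.59), PCDHB11 (ratio 109, 95% counting interval 19.2 to 4340) and PCDHGB1 (ratio 24.8, 8.21 to 122.6) were higher in FaDu as in controls. Beside these, PCDHB13 had 30, 29 and 44 counts in FaDu and 7, 9 and 24 in SAS (log2 fold change 1.17, edgeR adjusted p = 0.0265), and PCDHGA11 3, 0 and 10 in FaDu and 16, 11 and 15 in SAS (-1.88, edgeR adjusted p = 0.0201). The FaDu and SAS libraries of these last members did not overlap in CPM.

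After RT, edgeR tested 14 members and called 10, 8 higher in FaDu and 2 higher in SAS, against 38.7% of all tested genes (21.7% and 17% by direction). Their median log2 fold change was 2.38, against 0.029 over all tested genes. Most again passed the filter through their high line only, which sets both the number and the median. The call of PCDHB13 was lost without FaDu RT replicate 3 (edgeR adjusted p = 0.0693), SAS RT replicate 1 (0.099) or SAS RT replicate 2 (0.103), and that of PCDHGA11 without SAS RT replicate 1 (0.0652) or replicate 3 (0.0536). DESeq2 called 20 of 50 members (7176 of 32528 genes), the fit without a filter 25 of 50 (8184 of 32528) and the fit of all 24 libraries 17. Of the 3 members with 10 counts in every library 0 were called, against 3761 of 12959 genes.

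After HT, the 9 members called in controls were called again, together with PCDHB9, PCDHB13, PCDHB14 and PCDHGC4, and PCDHGB5 had 2, 3 and 1 counts in FaDu. PCDHB14 had 62, 104 and 79 counts in FaDu HT and 27, 20 and 29 in SAS HT libraries, a log2 fold change of 1.71 (SE 0.27, edgeR adjusted p = 2.01e-04). PCDHB13 had 29, 40 and 37 against 6, 14 and 10 counts (1.85, SE 0.34, edgeR adjusted p = 6.75e-04), and PCDHB9 18, 11 and 17 against 4, 2 and 2 (2.51, SE 0.49, edgeR adjusted p = 9.40e-04). All 3 beta genes lay higher in every FaDu HT library than in any SAS HT library. PCDHGC4, a C-type gene, had 12, 17 and 19 counts against 4, 5 and 3 (log2 fold change 2, edgeR adjusted p = 0.00124). Of these 4 members, PCDHB14 alone was called for a different response of the lines to HT: the interaction was 1.51 in PCDHB13 (edgeR adjusted p = 0.0786), 0.78 in PCDHB9 (0.693) and -0.83 in PCDHGC4 (0.725), and PCDHB9 and PCDHGC4 were filtered out in controls without being tested. PCDHA4 and PCDHA11 stayed at 0 in SAS, at least 122.7-fold and 88.7-fold higher in FaDu, and PCDHB2 had 1 count there (ratio 434.4, 95% counting interval 77.6 to 17200).

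PCDHB11 (ratio 80.7, 95% counting interval 22.0 to 671.6), PCDHGB7 (log2 fold change 5.17), PCDHGB1 (3.24) and PCDHGA10 (3.20) were also higher in FaDu HT. PCDHGB5 (-7.06) and PCDHGA6 (-1.38) were higher in SAS HT. In all, edgeR tested 15 members and called 13, 11 higher in FaDu and 2 higher in SAS, against 40.1% of all tested genes (21.9% and 18.2% by direction). The median was 2.51 against 0.023 over all tested genes, with most members again tested because of their high line only, so that neither number is support for a difference of the family. Of the 3 members with 10 counts in every library, 1 was called, against 4026 of 13209 genes. DESeq2 called 21 of 52 members (7647 of 36279 genes) and the fit without a filter 24 of 52 (8677 of 36279). PCDHGA6 was not called by DESeq2 (adjusted p = 0.0745).

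After HT+RT the lines again differed in the alpha genes, in PCDHB2 and in PCDHGB5. PCDHA4 (100, 122 and 204 counts), PCDHA11 (108, 82 and 158) and PCDHB2 (142, 114 and 297) were at 0 in every SAS HT+RT library, at least 115.2-fold, 94.1-fold and 149.5-fold higher in FaDu. PCDHGA1, with 11, 9 and 17 counts against 0, 0 and 0, was at least 10.0-fold higher in FaDu. PCDHB11 (ratio 78.7, 95% counting interval 21.5 to 654.4), PCDHGB1 (ratio 40.6, 6.95 to 1634), PCDHGB7 (log2 fold change 4.68), PCDHGA10 (2.01), PCDHB9 (1.64), PCDHB13 (1.24) and PCDHB14 (1) were the others higher in FaDu. On the SAS side, PCDHGB5 had 241, 325 and 324 counts against 0, 1 and 0 (ratio 1097, 95% counting interval 196.4 to 43380), PCDHGB6 11, 15 and 20 against 0, 2 and 2 (log2 fold change -3.64, edgeR adjusted p = 1.82e-04) and PCDHGA6 10, 15 and 19 against 3, 7 and 1 (-2.14, edgeR adjusted p = 0.00804). Both directions thus held mostly members that were near 0 in the other line.

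Here edgeR tested 17 members and called 14, 11 higher in FaDu and 3 higher in SAS, against 40.4% of all tested genes (22.1% and 18.3% by direction). The median log2 fold change was 1.64, against 0.019 over all tested genes, and the filter acted on both numbers as in the other conditions. Of the 4 members with 10 counts in every library, 2 were called, against 3986 of 13141 genes. The fit without a filter called 22 of 53 members (8945 of 33926 genes) and DESeq2 21 of 53 (7842 of 33926). PCDHB14 sat on the 2-fold threshold: its log2 fold change was 0.95 without FaDu HT+RT replicate 1, 0.98 without FaDu HT+RT replicate 3, 0.68 without SAS HT+RT replicate 2, and 0.95 in the fit of all 24 libraries, each short of a call.

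Whether treatment moved these genes was asked within each line. After HT in FaDu, PCDHGC3 and PCDHA11 were lower and PCDHB14 higher than in controls, all by less than 2-fold. PCDHGC3 was at 19.99, 19.8 and 22.3 CPM in FaDu controls and at 10.8, 14.9 and 13.1 CPM after HT (log2 fold change -0.66, SE 0.13, edgeR adjusted p = 0.01). PCDHA11 was at 8.52, 8.48 and 8.02 CPM and then at 4.78, 4.34 and 5.49 CPM (-0.76, SE 0.15, edgeR adjusted p = 0.00875). PCDHB14 was at 2.11, 2.55 and 2.22 CPM in controls and at 3.61, 5.43 and 4.17 CPM after HT (0.96, SE 0.21, edgeR adjusted p = 0.016). None of these groups overlapped.

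**Figure D4:**
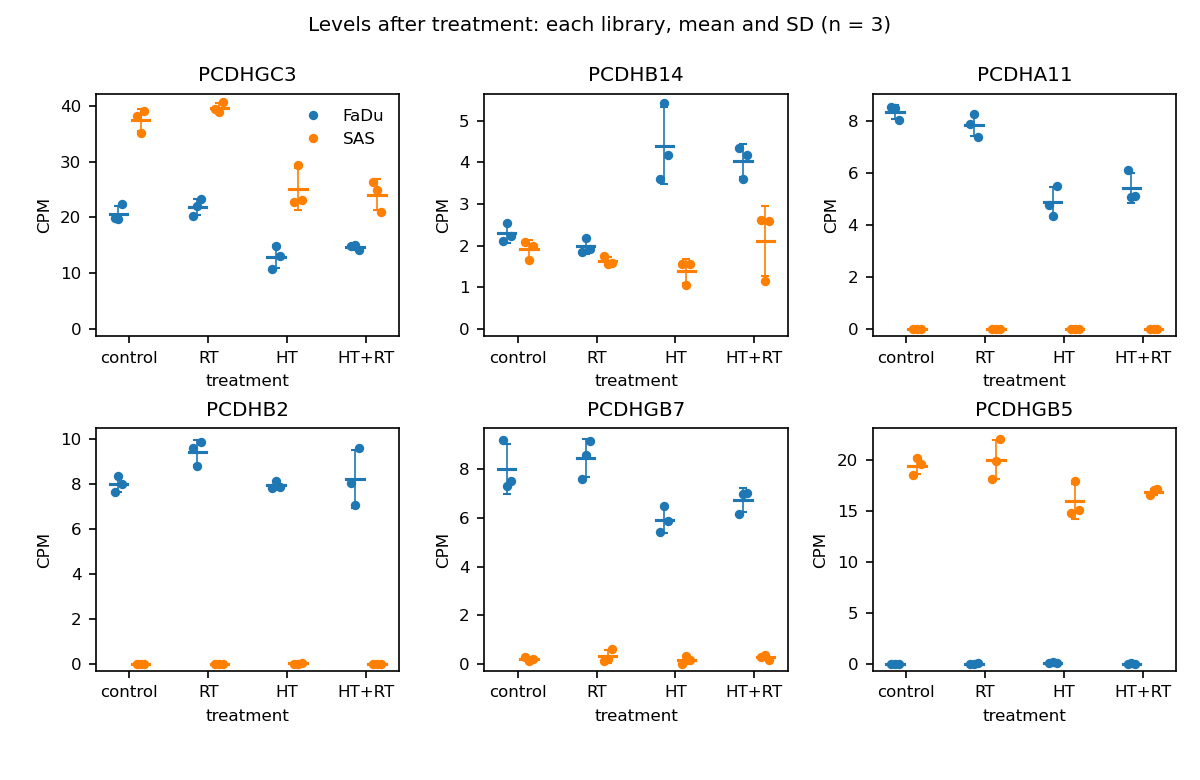
Level in CPM of 6 members in each condition, with a point for each library and the mean and SD of the 3 replicates, FaDu in blue and SAS in orange. PCDHGC3 lies lower after HT and HT+RT in both lines, and PCDHB14 lies higher after HT in FaDu and not in SAS.

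The fits gave PCDHA4 a log2 fold change of -0.29 (edgeR adjusted p = 0.437) and PCDHB2 one of 0.01 in FaDu, and their control and HT libraries overlapped in CPM. Replicates of the same number resembled each other between FaDu control and HT (correlations of 0.45, 0.23 and 0.23), and within such pairs PCDHA4 went from 5.74 to 5.59, from 8.94 to 7.00 and from 10.12 to 7.49 CPM. Whether PCDHA4 and PCDHA11 differed in response was not tested. Of 17 members tested in FaDu after HT, edgeR called 0, against 4.97% of all tested genes. Of the 17, 5 had an unadjusted p under 0.05 (30.8% over all tested genes), DESeq2 also called 0, and the median log2 fold change was 0.19 against 0.006 over all tested genes. PCDHB14 was called without FaDu control replicate 2 (log2 fold change 1.04) or FaDu HT replicate 1 (1.09), and PCDHB11 without FaDu control replicate 3 (1.23). With no low-count filter, PCDHGA11 was called (1.89), and with all 24 libraries in 1 fit PCDHGA6 (2.53) and PCDHGB5, the latter from 0 counts in the controls.

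In SAS, HT left PCDHGC3 lower too, at 38.2, 35.2 and 39.0 CPM in controls and 22.7, 29.4 and 23.2 CPM after HT (log2 fold change -0.57, SE 0.11, edgeR adjusted p = 0.00227). PCDHGB5 was at 18.6, 20.3 and 19.6 CPM in controls and at 14.8, 17.9 and 15.1 CPM after HT (-0.28, SE 0.11, edgeR adjusted p = 0.0851). PCDHB13 was at 1.07, 0.742 and 1.41 CPM and then at 0.347, 0.738 and 0.542 CPM (-0.96, SE 0.40, edgeR adjusted p = 0.111). In each of these the HT libraries lay below the controls, by less than 2-fold and past an adjusted p of 0.05 in PCDHGC3 alone. Of 6 members tested, edgeR called 0, against 6.03% of all tested genes, with 3 at an unadjusted p under 0.05 (35.5% over all tested genes) and 0 called by DESeq2. The median log2 fold change was -0.37, against 0.003 over all tested genes.

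HT+RT was measured against the same control libraries as HT, and the treated groups were not tested against each other. In FaDu, PCDHGC3 was at 14.9, 15 and 14.1 CPM (log2 fold change -0.47, edgeR adjusted p = 0.00747), PCDHB14 at 4.35, 3.60 and 4.17 CPM (0.85, edgeR adjusted p = 0.011) and PCDHA11 at 6.11, 5.08 and 5.11 CPM (-0.59, edgeR adjusted p = 0.0141). In SAS, PCDHGC3 was at 26.3, 24.9 and 21.0 CPM (-0.63, SE 0.10, edgeR adjusted p = 5.87e-04), PCDHGB6 at 0.756, 0.787 and 1.06 CPM against 0.588, 0.457 and 0.352 in controls (0.89, edgeR adjusted p = 0.112), and PCDHGB5 at 16.6, 17.1 and 17.1 CPM (-0.20, edgeR adjusted p = 0.166). All 6 groups lay clear of their controls, and all differences were under 2-fold.

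For HT+RT, edgeR called 0 of 13 members tested in FaDu, against 5.72% of all tested genes (3 at an unadjusted p under 0.05, over all tested genes 32%, 0 called by DESeq2), with a median log2 fold change of -0.22 against 0.007 over all tested genes. In SAS it called 0 of 7, against 6.36% of all tested genes (2 at an unadjusted p under 0.05, over all tested genes 36.1%, 0 called by DESeq2), with a median of -0.20 against 0.003. In FaDu, PCDHGA11 was called without FaDu control replicate 1 (log2 fold change 2.59), without FaDu HT+RT replicate 1 (2.50), with no filter (2.11) and with all 24 libraries in 1 fit (2.09), and PCDHB11 without FaDu control replicate 3 (1.27). PCDHGA11 had 5, 2 and 3 counts in FaDu controls, against 7, 5 and 22 in the HT libraries and 4, 15 and 28 in the HT+RT libraries, and both treated groups overlapped the controls in CPM. In SAS, the fit of all 24 libraries called PCDHGA10 (2.03).

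RT alone was followed by no difference that passed the test. In FaDu, edgeR called 0 of 14 members, against 0.00643% of all tested genes, with 0 at an unadjusted p under 0.05 (5.09% over all tested genes) and 0 called by DESeq2. The smallest unadjusted p values were those of PCDHB2 (log2 fold change 0.23, SE 0.11, edgeR adjusted p = 1), PCDHGC4 (0.60, SE 0.49) and PCDHB14 (-0.21, SE 0.20). In SAS it called 0 of 7, against 0.0272% of all tested genes, with 1 at an unadjusted p under 0.05 (5.68% over all tested genes) and 0 called by DESeq2. That 1 was PCDHGA11, with 4, 6 and 7 counts in controls and 16, 11 and 15 after RT (log2 fold change 1.24, SE 0.43, edgeR adjusted p = 0.68), groups that did not overlap. PCDHB13 (-0.56, SE 0.47) and PCDHGC3 (0.08, SE 0.07) came next. The median log2 fold change was 0.09 in FaDu and -0.02 in SAS, against -0.002 and -0.004 over all tested genes.

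Whether the lines responded differently was tested as the interaction of cell line with treatment, where a positive value means a more upward response in FaDu. PCDHB14 stood out after HT: higher by 0.96 on the log2 scale in FaDu and at -0.45 in SAS, with 2.09, 1.66 and 1.995 CPM in SAS controls and 1.56, 1.06 and 1.57 CPM after HT. The interaction was 1.44 (SE 0.33, edgeR adjusted p = 0.0187). It was called in 7 of the 12 fits that each left out 1 library, and lost without FaDu control replicate 3, FaDu HT replicate 2, SAS control replicate 1, SAS control replicate 3 or SAS HT replicate 2, with adjusted p values of up to 0.062. DESeq2 gave 0.0116 and the replicate block 0.00481. PCDHGC3, lower after HT in both lines, had an interaction of -0.05 (SE 0.18, edgeR adjusted p = 0.945), so no difference between its responses was detected.

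The other members called rest on very few counts in FaDu. PCDHGB5 had 0, 0 and 0 counts in FaDu controls and 2, 3 and 1 after HT, at least 2.28-fold higher, while SAS stayed at 256 to 355 in those groups, for an interaction of 4.44 (SE 1.05, edgeR adjusted p = 0.027), a size that rests on the fit at 0 counts and is no measured fold. PCDHGA6 had 1, 1 and 1 counts in FaDu controls and 5, 6 and 6 after HT (ratio 6.45, 95% counting interval 1.87 to 34.4), while SAS had 14, 11 and 21 and then 13, 19 and 14 (interaction 2.62, SE 0.71, edgeR adjusted p = 0.0436). Both members stayed lower in every FaDu HT library than in any SAS HT library. With HT+RT the interaction was 2.02 in PCDHGB5 (edgeR adjusted p = 0.549) and 1.88 in PCDHGA6 (0.354), and neither was called. As a comparison, 22 genes were picked as high in SAS (over 20 CPM in every library) and near 0 in FaDu (median under 0.2 CPM). That median covered all FaDu libraries, those after HT included, so the choice itself set a low FaDu share. These 22 genes held 12, 13 and 16 counts in FaDu controls and 53, 22 and 16 after HT. The HT counts were 0.187%, 0.0717% and 0.0537% of their SAS level, against 0.704%, 0.975% and 0.335% for PCDHGB5. After HT+RT the values were 0.0516%, 0.0273% and 0.0886%, against 0%, 0.389% and 0% for PCDHGB5. Whether these changes are linked was not tested.

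Over all members, edgeR fitted 19 for the interaction with HT and called 3, all positive, against 2.74% of all tested genes (1.25% positive, 1.49% negative). For 5 of the 19, at 0 in every SAS library (PCDHA1, PCDHA4, PCDHA11, PCDHA12 and PCDHAC2), the interaction could not be estimated, and the other 14 had a median of -0.04 against 0.03 over all genes with an estimate. The number called was 1 without FaDu control replicate 1, FaDu control replicate 2, SAS control replicate 1, SAS control replicate 3 or SAS HT replicate 2, and 0 without FaDu control replicate 3 or FaDu HT replicate 2. Without FaDu HT replicate 1, PCDHGC5, which was not among the 19, was called (3.15, edgeR adjusted p = 0.0401). PCDHGA6 kept its call in 1 of the 12 fits (adjusted p 0.0449 to 0.137; DESeq2 0.148, replicate block 0.0697), and PCDHGB5 in 7 (0.0239 to 0.117; DESeq2 0.0493, replicate block 0.0327), being lost without any FaDu control replicate or without FaDu HT replicate 1 or 2.

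With HT+RT, edgeR fitted 18 members, 4 of them (PCDHA4, PCDHA11, PCDHB2 and PCDHGA1) without an estimate for lack of any SAS count, and called 1, PCDHGA10, against 3.4% of all tested genes (1.43% positive, 1.97% negative). PCDHGA10 had 26, 48 and 48 counts in FaDu controls and 24, 23 and 58 after HT+RT, while SAS had 1, 2 and 2 and then 8, 6 and 7, so that the FaDu groups overlapped and the SAS groups did not. Its interaction was -2.27 (SE 0.65, edgeR adjusted p = 0.0459). It was called in 2 of the 12 fits that each left out 1 library (adjusted p 0.0293 to 0.122), those without FaDu control replicate 1 or FaDu HT+RT replicate 3, and the number called fell to 0 in the fits without FaDu control replicate 2 or 3, FaDu HT+RT replicate 1 or 2, or any of the SAS control and SAS HT+RT replicates. DESeq2 called 0 (adjusted p = 0.0776 for PCDHGA10), whereas the replicate block kept the call (edgeR adjusted p = 0.0359). In the main fit, 1 of the 18 had an unadjusted p under 0.05 (19.2% over all tested genes). PCDHGA11 (1.75, SE 0.83, edgeR adjusted p = 0.266) and PCDHB14 (0.74, SE 0.37, edgeR adjusted p = 0.298) had the next smallest p values. This interaction uses the same control libraries as that with HT, and the median over the 14 members with an estimate was 0.47 against 0.03 over all genes with an estimate.

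Genes that act on these promoters or with these proteins were compared as lists. Between the controls, 38.1% of all tested genes were called. Among 28 genes of promoter choice and silencing (CTCF, cohesin, DNA methylation and repressor genes), all were tested there and 3 were called, each higher in SAS, with a list median of -0.03 against 0.029. They were the cohesin subunits SMC1A (log2 fold change -1.72) and STAG1 (-1.19) and TRIM28 (-1.32), a corepressor that recruits histone methyltransferase. CTCF itself and the DNA methyltransferases were not called, which does not make them equal. DNMT3B held 5459 raw counts over the 12 FaDu and 2540 over the 12 SAS libraries, DNMT3A 6072 and 3993. At an unadjusted p under 0.05 between the controls were 17 of the 28, against 76.6% of all tested genes. Between the lines after RT, HT and HT+RT, 5, 5 and 6 were called, with 2, 1 and 2 higher in FaDu. Over all tested genes those shares were 38.7%, 40.1% and 40.4%. After HT, edgeR called 0 of the 28 in FaDu and 0 in SAS, against 4.97% and 6.03% of all tested genes. At an unadjusted p under 0.05 were 11 and 12 of the 28, against 30.8% and 35.5% of all tested genes. Among 18 partners and proteases, 6 were called between the controls, with a median of -0.27. PTK2 (-1.92) and PTK2B (-2.32), kinases that the cytoplasmic tails of alpha and gamma protocadherins bind, and CYFIP1 (-1.33) and ABI2 (-1.07), of the WAVE actin complex, were higher in SAS. PSENEN (1.35), of the gamma-secretase that cuts protocadherins, was among those higher in FaDu.

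Some related adhesion genes outside the clusters were also called between the controls, where 38.1% of all tested genes were. Of 12 non-clustered protocadherins, 6 were tested between the controls and 4 were called, all higher in FaDu. PCDH18 (62, 51 and 64 against 0, 0 and 0 counts) was at least 49.97-fold and PCDH10 (22, 26 and 35 against 0, 0 and 0) at least 23.4-fold higher, PCDH9 (53, 67 and 113 against 0, 0 and 1) had a ratio of 197.4 (95% counting interval 35.1 to 7828), and PCDH12 a log2 fold change of 1.40. The list median was 4.30, or 2.97 with genes at 0 set to their bound. Members of this list at 0 in SAS passed the filter through FaDu only. After HT in FaDu, 3 of 7 tested were called, against 4.97% of all tested genes: PCDH12 (1.49), PCDH19 (1.19) and PCDH9 (1.08) rose. Of 23 cadherins, 10 were tested and 7 called, with a median of -0.99. CDH8 (at least 26.8-fold) and CDH26 (log2 fold change 3.40) were higher in FaDu, and CDH13 (-6.92), CDH4 (-3.24), CDH23 (-2.37) and CDH5 (-1.75) were among those higher in SAS. CDH13 had 38, 3 and 4 counts in FaDu and 1638, 1559 and 1573 in SAS controls, so FaDu replicate 1 carried most of its FaDu level.

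Genes beside or between the clusters were listed as well. Of 11 listed, 10 were tested between the controls and 2 were called (38.1% over all tested genes), ARAP3 (-1.37) and RELL2 (-1.07), both higher in SAS. After HT and after HT+RT, 3 of the 10 were called between the lines, 1 of them higher in FaDu, against 40.1% and 40.4% of all tested genes. After HT in FaDu, 1 of the 10 was called (4.97% over all tested genes): TAF7, an intronless gene between the beta and gamma clusters that encodes a subunit of general transcription factor TFIID. TAF7 had 1906, 2247 and 2637 counts in FaDu controls and 3562, 4816 and 4627 after HT (log2 fold change 1.14, SE 0.09, edgeR adjusted p = 1.18e-04), with no overlap. In SAS it had 1443, 1428 and 1141 and then 1653, 1714 and 1654 counts (0.29, edgeR adjusted p = 0.0147). Its interaction with HT was 0.88 (SE 0.13, edgeR adjusted p = 6.26e-04), a stronger response in FaDu by less than the 2-fold threshold. The 5 listed pseudogenes of the clusters were too low to be tested, with a highest sum of 0.550 CPM in any library.

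Some markers of other cell types moved with HT, and their part in the results above was not tested. RBFOX3, a neuronal splicing factor gene, had 13, 0 and 4 counts in FaDu controls and 393, 262 and 443 after HT (log2 fold change 6.19, edgeR adjusted p = 1.38e-04), and 1, 0 and 4 and then 174, 78 and 108 in SAS (6.05, edgeR adjusted p = 1.53e-05). The summed neuronal markers were at 48.3, 37.97 and 47.0 CPM in FaDu HT and 28.5, 26.3 and 24.4 CPM in SAS HT, with RBFOX3 the most abundant by mean in both. MAP2 had more counts in SAS HT replicates 2 and 3 (133 and 115 against 78 and 108), and SYT1 in FaDu HT replicate 2 (276 against 262). Of the neuronal markers, 6 were tested in FaDu and 5 in SAS, and RBFOX3 was the 1 called in each. COL1A1, the fibrillar collagen gene, had 22, 17 and 31 counts in SAS controls and 542, 313 and 442 after HT (4.18, edgeR adjusted p = 6.35e-07), and 681, 841 and 1125 in FaDu controls. Of the 8 fibroblast markers, 2 were detected in SAS controls and 4 in SAS HT, among them PDGFRA with 1, 2 and 3 and then 12, 9 and 11 counts, too low to be tested. PDGFRB had 10, 6 and 4 and then 5, 3 and 8 counts, and LUM 2, 6 and 1 and then 1, 3 and 7. OLIG1 had 1, 2 and 2 counts in FaDu controls and 17, 12 and 11 after HT (3.11, edgeR adjusted p = 0.00394). MBP, the most abundant glial marker, was lower after HT by less than 2-fold in FaDu (-0.54, edgeR adjusted p = 0.00628), with -0.35 (0.054) in SAS.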

How the data were processed

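Directional RNA libraries of 24 samples were made for the authors, base calls were converted with bcl2fastq, and the authors deposited raw counts of reads per gene, used here, beside normalized counts. The labels name DESeq2 and the mouse build mm9, although the identifiers are human. Members and lists were chosen with earlier results of these data known. Tests used edgeR 4.0.16 under R 4.3.3 (TMM, filterByExpr with a minimum count of 10, quasi-likelihood test, Benjamini-Hochberg over all tested genes), in 12 comparisons, each on its own libraries. Named were all members called, up to 15 or 20 per comparison, the 3 smallest p values where fewer than 3 were called, subgroup leaders, members at 0 in a line, and called list genes (up to 6, not all of them named). PCDHGB4, MBP, PDGFRA, PDGFRB, LUM and the set of interactions with an estimate were chosen after values were seen. Alternatives were DESeq2 1.42.0, RLE factors, other filters, adjusted p alone, 1 fit of all 24 libraries, a replicate block, each library left out, plain CPM and union exon lengths. Tables of GENCODE v29 gave names and lengths, and 602 genes were not in them. Each SE of an edgeR log2 fold change was worked back from the test, as its absolute size over the square root of F. The procedure was tested on simulated data.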

Additional observations from a re-analysis of the deposited data

Results flagged for a closer look

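These results are listed because the test of the interaction called a response that differs between FaDu and SAS spheroids. PCDHB14 after HT had an interaction of 1.44 (log2 scale, edgeR adjusted p = 0.0187; SE 0.33), more upward in FaDu. PCDHGA6 after HT had 2.62 (SE 0.71, edgeR adjusted p = 0.0436), and PCDHGB5 after HT 4.44 (SE 1.05, edgeR adjusted p = 0.027), both resting on 17 or fewer counts summed over the FaDu HT group. With 0 counts of PCDHGB5 in the FaDu controls, its 4.44 rests on the fit at 0 counts and is no measured fold. PCDHGA10 after HT+RT had -2.27 (SE 0.65, edgeR adjusted p = 0.0459), resting on 5 counts over the SAS controls. Each call was lost in at least 5 of the 12 fits that left out 1 library. None of these members was called in the other interaction. With HT+RT the value was 0.74 in PCDHB14 (edgeR adjusted p = 0.298), 1.88 in PCDHGA6 (0.354) and 2.02 in PCDHGB5 (0.549). With HT it was -1.07 in PCDHGA10 (edgeR adjusted p = 0.541).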

How the results depend on the processing

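Of the 70 fold changes of named members, 0 reversed under the settings in which they were tested (18 of the 70 with 10 counts in every library). DESeq2 kept 67 on their side of the thresholds and weakened 3, RLE factors kept 70, the fit of all 24 libraries 68, the fit with no low-count filter 67, and the replicate block 69. Leaving out 1 library weakened 39 and strengthened 2 of the values it gave. The numbers of members called moved more. For FaDu against SAS they were, in controls, after RT, HT and HT+RT, 9, 10, 13 and 14, with no filter 19, 25, 24 and 22, with 10 counts in every library 0, 0, 1 and 2, and with DESeq2 16, 20, 21 and 21. The fit of all 24 libraries gave 17 in controls and 17 after RT. In controls, 4 members were tested with 10 counts in every library and 49 with DESeq2 or no filter. The numbers of all genes called in those fits stand beside each comparison above. Leaving out 1 library gave 9 to 11, 11 to 12, 13 to 17 and 14 to 15.

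After HT in FaDu the number called was 0, with adjusted p alone 3, with no filter 1, with all 24 libraries 2 and without 1 library 0 to 1. After HT+RT in FaDu it was 0, and then 3, 1, 1 and 0 to 1. In SAS, adjusted p alone gave 1 after HT and 1 after HT+RT, and the fit of all 24 libraries 1 after HT+RT. After RT it was 0 in both lines under every setting. The interaction with HT gave 3, with 10 counts in every library 1 and without 1 library 0 to 3, and that with HT+RT gave 1, with DESeq2, no filter or 10 counts in every library 0, and without 1 library 0 to 1. The cause was not tested. Of 44 levels per kb, 33 moved by over 1 SD when all exons gave the length and 11 with plain CPM, while PCDHGC3 led its subgroup throughout. With all exons as length, 2 subgroup leaders in SAS HT changed, from PCDHGA11 to PCDHGA6 and from PCDHA6 to PCDHA10.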
